A study of Homo sapiens with 24 samples.

Results

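A set of 8 genes of platinum uptake, copper handling and organic cation transport was followed across all samples: SLC31A1, SLC31A2, ATP7A, ATP7B, ATOX1, SLC22A2, SLC22A3 and SLC47A1. The genes were taken by symbol. ATOX1, ATP7A and ATP7B were among the 33113 genes read from the deposited count table. The 5 SLC genes were among the 37967 genes read from a second deposited table. A mean of at least 10 counts over the 24 samples was reached by 5 of the 8, namely SLC31A1, SLC31A2, ATOX1, ATP7A and ATP7B, and the other 3 were near 0 in every sample.

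RNA was sequenced from HCT116, a human colorectal carcinoma cell line, and from HCT116 oxpl-R, a line that had been derived from it by repeated short exposures to a high dose of oxaliplatin. All samples of both lines carried TetOn-E1A, an adenovirus E1A gene that doxycycline induces. The 4 groups of HCT116 were control (untreated), E1A (0.5 µg/mL doxycycline), oxaliplatin (25 µM for 24 h) and E1A + oxaliplatin (doxycycline 3 h before 25 µM oxaliplatin for 24 h), and HCT116 oxpl-R had the same 4 groups, with 3 biological replicates in each of the 8 groups. An effect of E1A and an effect of doxycycline cannot be told apart, since no sample had doxycycline without the gene. The resistant line is a single selected population, which the study describes as hypotetraploid.

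Oxaliplatin is a platinum drug, and platinum drugs can use routes that cells keep for copper and for organic cations. SLC31A1 (CTR1) carries copper(I) across the plasma membrane, SLC31A2 (CTR2) is a related protein of intracellular membranes, ATOX1 is the cytosolic copper chaperone that hands copper to ATP7A and ATP7B, and these P-type ATPases load copper into the secretory pathway and export it. SLC22A2 (OCT2) and SLC22A3 (OCT3) are uptake carriers of organic cations, and SLC47A1 (MATE1) exports organic cations from kidney and liver cells.

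The samples summed to between 24838095 and 37927720 estimated counts in the count table (median 29382753) and to between 28004261 and 42613322 in the second table. The E1A transcript stood at 184 to 750 CPM (counts per 1000000 counts of the library, after normalization) in the 12 samples with doxycycline and at 3.53 to 9.88 CPM in the 12 without it, so it was above 0 in the uninduced samples too. Of 10 markers of colorectal epithelial cells, 7 reached a mean of 10 counts, and their summed level was 5302 to 16730 CPM, against 0 to 2.70 CPM for leukocyte markers, 0.0587 to 0.912 CPM for endothelial markers and 14.2 to 53.7 CPM for fibroblast markers. A group of 3 libraries was set apart, each from the other 2 of its group. HCT116 oxaliplatin replicate 3 correlated with the others at 0.964 and 0.968 (the others with each other at 0.993). HCT116 E1A + oxaliplatin replicate 1 correlated at 0.964 and 0.971 and had 184 CPM of E1A against 466 and 433. HCT116 oxpl-R oxaliplatin replicate 1 was set apart by its share of counts from mitochondrial genes alone, 1.38% against 15.4% and 19.7%. It was not apart in correlation, at 0.973 with replicate 2 and 0.964 with replicate 3. Replicates 2 and 3 of that group correlated at 0.970. Results that rest on these libraries are given with and without them.

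RefSeq start sites with a window of sequence were found for 5 of the 8 members. The 250 bases before the start are shown for ATOX1, SLC31A1 and ATP7B, the members whose RNA was called different between lines or treatments and for which a window was found, on GRCh38.p14 and written 5′ to 3′ on the strand of the gene. Capitals mark matches, on either strand, to GGGCGG (GC box), CCAAT, TGACGTCA (cAMP response element) and TGCGCNC (a form of the metal response element).
ATOX1, chr5:151758632-151758881, minus strand: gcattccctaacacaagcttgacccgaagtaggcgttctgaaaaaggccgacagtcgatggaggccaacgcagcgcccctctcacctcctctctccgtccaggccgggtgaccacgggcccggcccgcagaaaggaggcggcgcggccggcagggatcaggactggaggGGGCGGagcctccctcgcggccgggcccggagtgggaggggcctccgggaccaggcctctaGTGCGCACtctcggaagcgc
SLC31A1, chr9:113221294-113221543, plus strand: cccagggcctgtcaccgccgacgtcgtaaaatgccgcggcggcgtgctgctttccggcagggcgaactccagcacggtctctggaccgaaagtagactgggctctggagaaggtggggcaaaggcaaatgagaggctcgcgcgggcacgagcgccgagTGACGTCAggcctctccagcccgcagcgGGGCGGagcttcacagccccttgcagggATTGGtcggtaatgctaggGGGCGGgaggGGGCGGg
ATP7B, chr13:52012133-52012382, minus strand, the window at the start farthest upstream of 3 RefSeq starts: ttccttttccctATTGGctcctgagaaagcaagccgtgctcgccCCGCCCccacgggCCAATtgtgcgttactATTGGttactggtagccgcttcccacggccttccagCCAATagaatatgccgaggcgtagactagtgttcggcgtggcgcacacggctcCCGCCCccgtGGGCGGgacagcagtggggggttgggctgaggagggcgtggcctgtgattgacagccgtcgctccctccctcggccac

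The ATOX1 window held 1 GC box and 2 overlapping matches to TGCGCNC, 1 on each strand, near its end. This window lies inside the span that GENCODE gives ATOX1, whose annotated start is farther upstream. The SLC31A1 window held 3 GC boxes, 1 CCAAT box and 1 TGACGTCA. The ATP7B window shown held 3 GC boxes and 4 CCAAT boxes, and the window of a second RefSeq start, which overlaps it, held 3 GC boxes, 1 CCAAT box and 2 matches to TGCGCNC. Of 35116 RefSeq windows of this length, 42.6% held GGGCGG, 32% CCAAT, 16.8% TGCGCNC and 1.65% TGACGTCA. The E2F motifs TTTCGCGC and TTTGGCGC, in 0.439% and 0.55% of windows, were in none of the windows of the members, and the other form of the metal response element, TGCACNC, in 9.87% of windows, was among the members in the window of SLC22A2 only. The G+C share was 70.0% for ATOX1, 68.0% for SLC31A1 and 64.0% for ATP7B, against a median of 58.0% over all windows. These matches describe letters in a window and not sites that were measured here.

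ATOX1, the copper chaperone (chromosome 5, 151742316 to 151772532, minus strand, GRCh38), differed between the lines in every condition. Untreated HCT116 cells had 21.5, 19.4 and 21.5 CPM, and untreated HCT116 oxpl-R cells had 107.5, 103.0 and 140.4 CPM. Every resistant sample was above every parental sample, and this separation held over all 24 samples, the lowest resistant sample being an E1A sample at 72.7 CPM and the highest parental sample an oxaliplatin sample at 35.8 CPM. The difference between untreated lines was 5.65-fold, a log2 fold change of 2.50 (SE 0.14, n = 3 per line, edgeR's quasi-likelihood test, Benjamini-Hochberg adjusted p = 4.65e-08).

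The same comparison was made within each treatment. With E1A, the samples were at 19.7, 21.4 and 26.2 CPM in HCT116 and at 72.7, 113.6 and 114.4 CPM in HCT116 oxpl-R, a log2 fold change of 2.27 (SE 0.22, edgeR adjusted p = 3.49e-05). With oxaliplatin, they were at 35.8, 35.1 and 25.6 CPM in HCT116 and at 77.2, 99.7 and 96.6 CPM in HCT116 oxpl-R, a log2 fold change of 1.42 (SE 0.23, edgeR adjusted p = 0.00096). With both agents, they were at 23.3, 31.7 and 31.3 CPM against 74.2, 96.1 and 132.8 CPM, a log2 fold change of 1.81 (SE 0.24, edgeR adjusted p = 0.000105). The groups did not overlap in any of the 4 conditions, and the fold ranged from 2.67 with oxaliplatin to 5.65 without treatment. Over all alternatives tried, the 4 log2 fold changes stayed within 1.28 and 2.58 and every one passed the test. In the order of the 8 group means, the 4 resistant groups (91.2 to 117.0 CPM) overlapped their neighbours, as did the 4 parental groups (20.8 to 32.1 CPM), and the 2 sets were apart.

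ATOX1 was the only member called between the untreated lines and between the lines with E1A, where 28.3% and 17.7% of the genes of the count table and 24.1% and 15.9% of those of the second table were called in either direction. In bulk RNA of a line, a change in the share of cells that express a gene and a change of RNA per cell cannot be told apart.

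Genes near ATOX1, chosen for display after their values had been seen, were also higher in HCT116 oxpl-R. Of 11 genes with a mean of at least 10 counts that start within 1 Mb of the start of ATOX1, 10 were called higher and 0 lower in the untreated resistant line (edgeR on the second table; adjusted p of the remaining gene, SMIM3, 0.0911). Their median log2 fold change was 1.37, against 0.22 over 610 genes of chromosome 5 and 0.01 over 13289 genes of all chromosomes with a mean of at least 10 counts. GM2A, the lysosomal GM2 activator, was at 267.5 CPM in HCT116 oxpl-R and 62.4 CPM in HCT116 (log2 fold change 2.10), SLC36A1, a lysosomal amino acid carrier, at 53.1 and 18.7 CPM (1.51), and ANXA6, an annexin, at 243.2 and 171.8 CPM (0.50). FAT2, a large cadherin, was at 9.51 CPM in HCT116 oxpl-R and 0.180 CPM in HCT116. GPX3, a secreted glutathione peroxidase, had 0 counts in the 3 HCT116 samples and 1.39 CPM in HCT116 oxpl-R, which is at least 15.5-fold higher at 3 counts per library, and the non-coding gene CLMAT3 was at least 10.5-fold higher by the same floor.

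With oxaliplatin 6 of the 11 neighbours were called higher in HCT116 oxpl-R, with E1A 7 and with both agents 5, and 0 were called lower in any of these 3 comparisons. Of all genes of the second table with any count, 21.5%, 15.9% and 14.4% were called in them, and 24.1% between the untreated lines. The neighbours were limited to a mean of at least 10 counts, so these shares are not of like genes. The median log2 fold changes over the 11 neighbours were 0.72, 0.78 and 0.54, against 0.43, 0.25 and 0.34 over chromosome 5. ATOX1 itself stood above the median of its neighbours in all 4 conditions, at 2.46, 1.46, 2.14 and 1.77 on the second table in the order untreated, oxaliplatin, E1A and both. One neighbour, G3BP1, lies on the plus strand and overlaps the annotated start of ATOX1 by 1488 bases. Whether the library kit and the quantification kept the strand is not given in the sources used here, so reads from the overlap cannot be told apart with certainty. G3BP1, a stress granule protein gene, had a log2 fold change of 0.64, smaller than that of ATOX1. The antisense gene ATOX1-AS1 had counts in 1 of 24 samples, at most 2.

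The response of ATOX1 to oxaliplatin was opposite in sign in the lines. In HCT116 it rose 1.63-fold, a log2 fold change of 0.70 (SE 0.18, edgeR adjusted p = 0.0186), and the oxaliplatin samples, at 25.6 CPM or more, were all above the control samples. In HCT116 oxpl-R the 3 oxaliplatin samples were below the 3 control samples, with a log2 fold change of -0.36 (SE 0.20) that did not pass the test (edgeR adjusted p = 0.431). The difference between these responses, tested as an interaction of line and oxaliplatin over 12 samples, was -1.04 on the log2 scale (95% confidence interval -1.59 to -0.49, edgeR adjusted p = 0.0431), where 2.44% of the count table and 3.17% of the second table were called. This term was lost without any one of 9 of the 12 libraries (adjusted p = 0.0525 to 0.147): each of the 3 HCT116 control libraries, each of the 3 HCT116 oxpl-R control libraries, HCT116 oxaliplatin replicates 1 and 2, and HCT116 oxpl-R oxaliplatin replicate 2. Its value stayed between -1.18 and -0.91. The rise in HCT116 was likewise lost without any one library other than HCT116 oxaliplatin replicate 3 (log2 fold change 0.57 to 0.73, adjusted p = 0.0578 to 0.106), and without replicate 3, which stands apart, it was 0.80 (adjusted p = 5.9e-05).

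With E1A present, oxaliplatin gave ATOX1 a log2 fold change of 0.43 (SE 0.20, edgeR adjusted p = 0.206) in HCT116, and of 0.53 (adjusted p = 0.00263) without HCT116 E1A + oxaliplatin replicate 1, the library that stands apart. In HCT116 oxpl-R with E1A it was -0.03 (SE 0.24, 95% confidence interval -0.55 to 0.48).

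**Figure D1:**
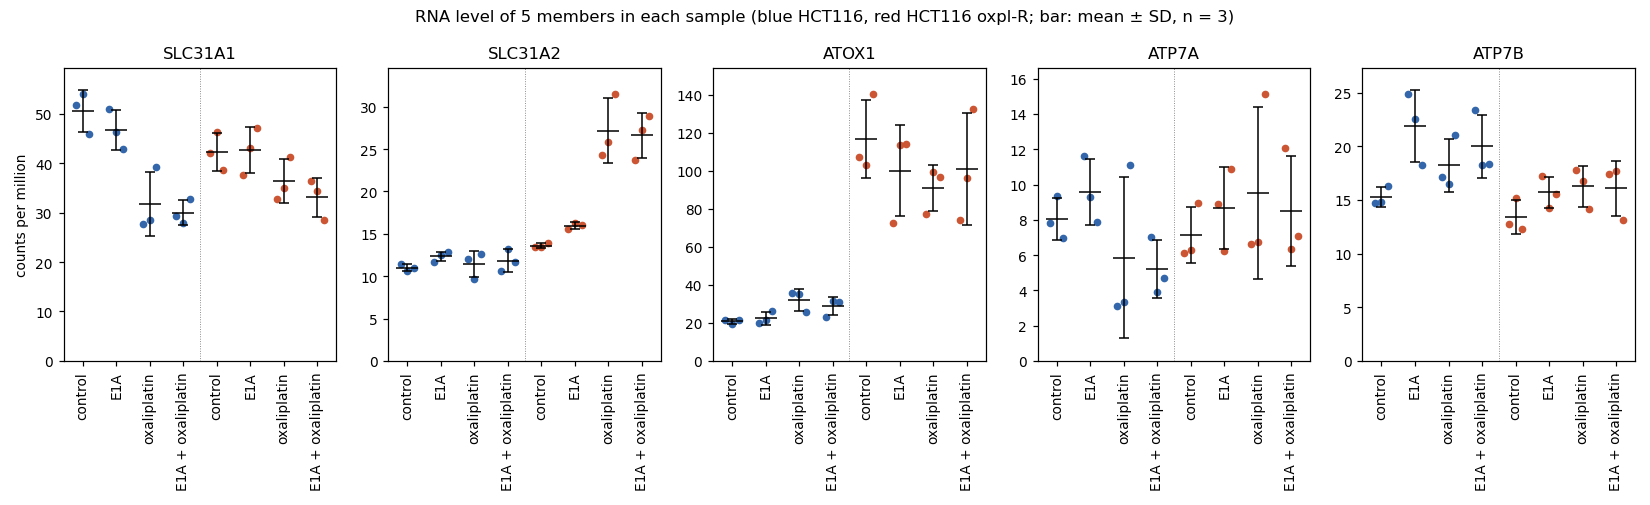
CPM (vertical axis, from 0, with its own scale in each panel) of the 5 members with a mean of at least 10 counts in each of the 24 samples, by group along the horizontal axis. Points are samples, blue for HCT116 and red for HCT116 oxpl-R, and bars are the mean ± SD of 3 samples; all 12 red points of ATOX1 lie above all 12 blue ones, and the SLC31A2 points of HCT116 oxpl-R with oxaliplatin, at 23.7 CPM and above, lie over those of all other groups.

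SLC31A2 (chromosome 9, 113150976 to 113164140, plus strand) was called higher in HCT116 oxpl-R in the conditions with oxaliplatin. In HCT116 its levels were 11.5, 10.7 and 10.9 CPM untreated and 12.03, 9.69 and 12.7 CPM with oxaliplatin. In HCT116 oxpl-R they were 13.4, 13.5 and 13.9 CPM untreated and 24.3, 25.8 and 31.5 CPM with oxaliplatin. The parental groups thus overlapped, while the resistant groups were apart, every treated sample standing well above every untreated one.

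The samples with E1A were placed alike. HCT116 samples were at 11.7, 12.49 and 12.8 CPM with E1A alone and 10.6, 13.2 and 11.7 CPM with both agents, and HCT116 oxpl-R samples at 15.6, 16.3 and 16.1 CPM and at 23.7, 27.3 and 28.9 CPM. In the order of the 8 group means, the 2 resistant groups with oxaliplatin came first (27.2 ± 3.80 and 26.6 ± 2.68 CPM, SD, n = 3) and overlapped each other, followed by HCT116 oxpl-R E1A (15.98 ± 0.359), HCT116 oxpl-R control (13.6 ± 0.289) and the 4 parental groups (11.01 to 12.35), whose neighbours overlapped.

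In HCT116 oxpl-R against HCT116, SLC31A2 was 2.33-fold higher with oxaliplatin, a log2 fold change of 1.22 (SE 0.25, edgeR adjusted p = 0.00417), and 2.25-fold with both agents, a log2 fold change of 1.17 (SE 0.23, edgeR adjusted p = 0.00544). Both calls held under every alternative. In these comparisons 20.7% and 18.5% of the genes of the count table and 21.5% and 14.4% of those of the second table were called, and ATOX1 and SLC31A2 were the 2 members called in each. Between the untreated lines the log2 fold change was 0.30 (95% confidence interval -0.04 to 0.65, edgeR adjusted p = 0.203) and between the lines with E1A 0.34 (-0.09 to 0.77, edgeR adjusted p = 0.281). Neither passed the test. The groups of SLC31A2 did not overlap in any of the 4 line comparisons. How many of all genes have groups that do not overlap was not counted, for these or any other comparisons. Such a gap, for any member, therefore describes the samples and is not evidence of a difference beside the test. Every resistant sample of SLC31A2, at 13.41 CPM or more, was above every parental sample, at 13.23 CPM or less. No member was called lower in HCT116 oxpl-R than in HCT116 in any of the 4 line comparisons, 0 at an unadjusted p under 0.05 by edgeR and 0 by DESeq2 or limma.

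Within HCT116 oxpl-R, oxaliplatin raised SLC31A2 2.00-fold, a log2 fold change of 1.00 (SE 0.20, edgeR adjusted p = 0.0145). It was the 1 member called there, where 4.12% of the count table and 4.28% of the second table were called. The call was lost without HCT116 oxpl-R control replicate 1 (log2 fold change 0.99, adjusted p = 0.0817) or replicate 2 (0.99, adjusted p = 0.0591), and was kept without the oxaliplatin library of low mitochondrial share (1.06, adjusted p = 0.017). With E1A present, the log2 fold change was 0.71 (SE 0.20) and 0 members were called by edgeR (adjusted p = 0.115 for SLC31A2, the 1 member at an unadjusted p under 0.05), in a comparison with 2.06% of the count table and 1.96% of the second table called. In that comparison replicates with the same number deviated together, and with the replicate number as a block the adjusted p of SLC31A2 was 0.0295 at the same fold change, while DESeq2 gave 0.00998.

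In HCT116, the log2 fold change of SLC31A2 with oxaliplatin was 0.10 (95% confidence interval -0.34 to 0.53) without E1A and -0.12 (-0.56 to 0.32) with it. The difference in response between the lines, as an interaction, was 0.94 (SE 0.27, 95% confidence interval 0.36 to 1.51), which did not pass the test (edgeR adjusted p = 0.0712). It did without HCT116 oxaliplatin replicate 3 (1.03, adjusted p = 0.0247), with DESeq2 (adjusted p = 0.000632), with low counts filtered (adjusted p = 0.0322) and with all 24 samples in one fit (adjusted p = 0.036). Of 12 fits with 1 library left out, that without HCT116 oxaliplatin replicate 3 was the 1 that passed. The values of these fits ran from 0.82 to 1.03 (edgeR adjusted p = 0.0247 to 0.19). Of 9 other alternatives, 6 passed.

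SLC31A2 and SLC31A1 are neighbours on chromosome 9, 57.4 kb apart on the same strand. Of the 19 genes that start within 1 Mb of SLC31A2, 2 were called higher and 3 lower between the untreated lines, with a median log2 fold change of 0.00. Between the lines with oxaliplatin, where SLC31A2 itself was higher, 2 were called higher and 1 lower, with a median of -0.03. With oxaliplatin against without in HCT116 oxpl-R, the median of the same 19 genes was -0.21, with 0 called higher and 1 lower by edgeR. In these comparisons 24.1%, 21.5% and 4.28% of all genes of the second table with any count were called in either direction.

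SLC31A1, the copper importer (chromosome 9, 113221544 to 113264492, plus strand), fell with oxaliplatin in HCT116. Control samples had 51.8, 53.9 and 45.9 CPM and oxaliplatin samples 27.6, 28.4 and 39.2 CPM. With E1A the samples were at 50.97, 46.2 and 42.9 CPM, and with both agents at 29.4, 27.8 and 32.8 CPM. In both pairs every treated sample was below every sample without oxaliplatin, with replicate 3 of the oxaliplatin group, the library that stands apart, nearest to the controls.

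The log2 fold change was -0.63 (SE 0.18, edgeR adjusted p = 0.0324) without E1A and -0.70 (SE 0.17, edgeR adjusted p = 0.0315) with it. The oxaliplatin comparison of HCT116 called 2 members, ATOX1 and SLC31A1, with 23.3% of the count table and 21.1% of the second table called, and that with E1A called SLC31A1 alone, with 10.0% and 7.63% called. The first call was lost without any one library other than HCT116 oxaliplatin replicate 3 (log2 fold change -0.69 to -0.57, adjusted p = 0.0639 to 0.134), and without that replicate the change was -0.87 (adjusted p = 0.000155). The second was lost without any one library other than HCT116 E1A + oxaliplatin replicate 1 (-0.77 to -0.63, adjusted p = 0.0577 to 0.194), and without that replicate the change was -0.63 (adjusted p = 0.00338).

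In HCT116 oxpl-R, SLC31A1 had 42.03, 46.3 and 38.6 CPM untreated and 32.8, 34.95 and 41.3 CPM with oxaliplatin, which overlapped. With E1A it had 37.7, 43.2 and 47.1 CPM, and with both agents 36.3, 34.3 and 28.6 CPM, which did not overlap. The log2 fold changes were -0.22 (95% confidence interval -0.61 to 0.17) and -0.39 (-0.80 to 0.01), and neither passed the test (edgeR adjusted p = 0.585 and 0.418). The interaction of line and oxaliplatin was 0.44 (SE 0.25, 95% confidence interval -0.09 to 0.98, edgeR adjusted p = 0.408). It was 0.64 (adjusted p = 0.0827) without HCT116 oxaliplatin replicate 3 and 0.69 (SE 0.22, adjusted p = 0.0453) with the 3 libraries that stand apart left out together, an alternative chosen after the data were seen, so the call for SLC31A1 turns on these libraries. Between the lines, the log2 fold change of SLC31A1 was -0.26 untreated, 0.17 with oxaliplatin, -0.16 with E1A and 0.14 with both, and none passed the test (edgeR adjusted p = 0.188 to 0.664). The 8 group means ran from 50.5 ± 4.19 CPM (SD, n = 3) in HCT116 control down to 29.98 ± 2.55 CPM in HCT116 E1A + oxaliplatin, and each group overlapped the next in that order.

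Oxaliplatin moved other quantities of these libraries too. In HCT116 the summed level of epithelial markers was 6299 to 7102 CPM in control and 11030 to 12680 CPM in oxaliplatin samples, and in HCT116 oxpl-R 7623 to 8263 CPM and 11370 to 16730 CPM. Mitochondrial genes took 11.7% to 14.9% of the counts in HCT116 control and 17.1% to 19.5% in HCT116 oxaliplatin. Their part in the changes of SLC31A1, SLC31A2 and ATOX1 was not tested.

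**Figure D2:**
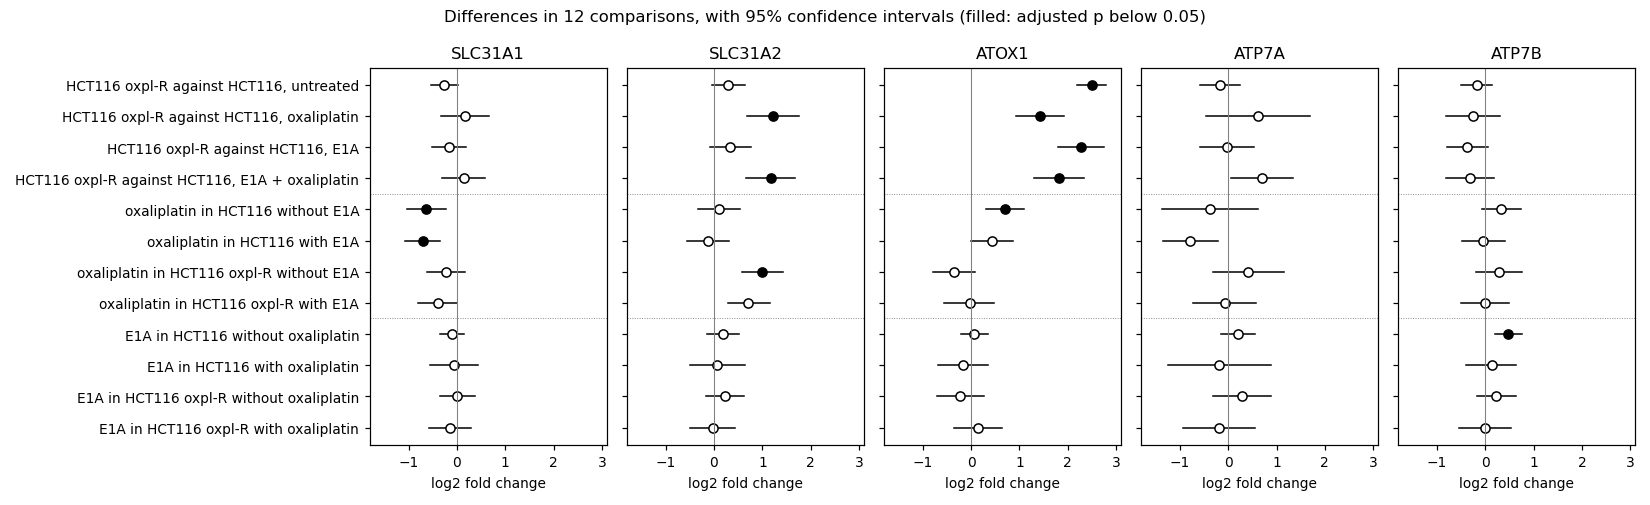
Log2 fold change (horizontal axis) with its 95% confidence interval for each of the 5 members in the 12 comparisons (vertical axis), 4 between lines, 4 of oxaliplatin and 4 of E1A. Filled points have an edgeR adjusted p below 0.05; ATOX1 is filled in all 4 line comparisons, SLC31A2 in the 2 with oxaliplatin, SLC31A1 in both oxaliplatin comparisons of HCT116, and ATP7B in 1 E1A comparison.

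ATP7A, a copper-exporting ATPase (chromosome X, 77910690 to 78050395, plus strand), was called in none of the 12 comparisons. It had 7.80, 9.34 and 7.00 CPM in HCT116 control and 3.12, 3.34 and 11.1 CPM in HCT116 oxaliplatin. The high value was that of replicate 3, the library that stands apart. The log2 fold change was -0.37 (SE 0.44, edgeR adjusted p = 0.55) with all 6 libraries and -1.28 (SE 0.20, adjusted p = 5.5e-05) without that replicate.

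With E1A, ATP7A was at 11.6, 9.30 and 7.88 CPM, and with both agents at 7.04, 3.90 and 4.72 CPM, which did not overlap. The log2 fold change of -0.79 (SE 0.26) did not pass the test (edgeR adjusted p = 0.0714), and did so at -1.11 (adjusted p = 6.08e-06) without HCT116 E1A + oxaliplatin replicate 1, which stands apart, and with DESeq2 (-0.81, adjusted p = 0.0484).

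In HCT116 oxpl-R the ATP7A levels were 6.10, 6.32 and 8.97 CPM untreated, 6.66, 6.77 and 15.1 CPM with oxaliplatin, 8.92, 6.21 and 10.9 CPM with E1A and 12.1, 6.35 and 7.11 CPM with both. All 4 resistant groups overlapped. Between the lines, the log2 fold change was 0.62 (SE 0.50, edgeR adjusted p = 0.431) with oxaliplatin and 0.70 (SE 0.30, edgeR adjusted p = 0.126) with both agents. Without HCT116 oxaliplatin replicate 3 the first was 1.48 (SE 0.44, adjusted p = 0.0453), and without HCT116 E1A + oxaliplatin replicate 1 the second was 0.98 (SE 0.29, adjusted p = 0.0222). The interaction of line and oxaliplatin for ATP7A was 0.81 (SE 0.59, edgeR adjusted p = 0.548), and 1.69 (SE 0.45, adjusted p = 0.0264) without HCT116 oxaliplatin replicate 3. Without HCT116 oxpl-R oxaliplatin replicate 1 instead, the line difference with oxaliplatin was 0.83 (SE 0.60, edgeR adjusted p = 0.397). The interaction was then 1.01 (SE 0.64, edgeR adjusted p = 0.421). With the 3 libraries that stand apart left out together, the values were 1.72 and 1.89 (edgeR adjusted p = 0.0298 and 0.00782). The resistant oxaliplatin sample at 15.1 CPM, replicate 3, stayed in all these fits. With the 3 libraries left out together, the HCT116 oxaliplatin sample at 11.1 CPM was not in the fit. Untreated, the lines differed by -0.17 (95% confidence interval -0.58 to 0.25) and with E1A by -0.03 (-0.58 to 0.53). In the order of its 8 group means, from 5.22 to 9.60 CPM, each group overlapped the next.

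ATP7B, the related ATPase whose loss causes Wilson disease (chromosome 13, 51930436 to 52012125, minus strand), was called in 1 comparison, that of E1A in HCT116. Control samples had 14.7, 14.8 and 16.3 CPM and E1A samples 24.84, 22.6 and 18.3 CPM. The groups did not overlap, and the rise was 1.39-fold, a log2 fold change of 0.48 (SE 0.13, edgeR adjusted p = 0.0251), where 9.5% of the count table and 5.22% of the second table were called. The call was lost without HCT116 control replicate 1 (0.46, adjusted p = 0.15) or 2 (0.46, adjusted p = 0.0956) and without HCT116 E1A replicate 1 (0.39, adjusted p = 0.153) or 2 (0.47, adjusted p = 0.0514). With all 24 samples in one fit the log2 fold change was 0.52 (adjusted p = 0.532).

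In HCT116 oxpl-R, ATP7B was at 12.7, 15.2 and 12.3 CPM untreated and 17.2, 14.3 and 15.6 CPM with E1A, which overlapped (log2 fold change 0.23, 95% confidence interval -0.17 to 0.63). The interaction of line and E1A was -0.27 (SE 0.23, edgeR adjusted p = 1), so a difference between the lines was not shown. With oxaliplatin ATP7B was at 17.1, 16.5 and 21.1 CPM in HCT116 and 17.8, 16.8 and 14.2 CPM in HCT116 oxpl-R, and with both agents at 23.4, 18.3 and 18.4 CPM and at 17.4, 17.7 and 13.1 CPM. Between lines the log2 fold changes of ATP7B ran from -0.37 to -0.18, and none passed the test (edgeR adjusted p = 0.223 to 0.534). On the second table the untreated value was 0.14, so its direction turned with the table. Its 8 group means ran from 13.4 to 21.9 CPM, and each group overlapped the next.

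No member was called in the other 3 comparisons of E1A, where 0 of 5 members with a mean of at least 10 counts were called by edgeR, DESeq2 or limma and 0 had an unadjusted p under 0.05. In those comparisons 0.0246%, 0.0755% and 0.638% of the count table and 0.0209%, 0.0593% and 0.634% of the second table were called (HCT116 with oxaliplatin, HCT116 oxpl-R without it and with it). For ATOX1 the 95% confidence intervals of the E1A effect were -0.21 to 0.35 in HCT116 and -0.71 to 0.27 in HCT116 oxpl-R without oxaliplatin. For SLC31A1 they were -0.34 to 0.15 and -0.35 to 0.37. The other 3 interaction terms called 0 members by edgeR, DESeq2 or limma, with 0 at an unadjusted p under 0.05: line by E1A (0.0164% of the count table and 0.00466% of the second table called), E1A by oxaliplatin in HCT116 (0.0% in both) and E1A by oxaliplatin in HCT116 oxpl-R (0.0% and 0.00464%).

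The organic cation carriers had almost no RNA in either line. SLC22A2 (chromosome 6, 160171061 to 160277638, minus strand) had counts in 2 of 24 samples, at most 1.97. SLC22A3, 70.7 kb away on the plus strand (160348378 to 160452577), had counts in 1 sample, 3.91 in HCT116 oxaliplatin replicate 2. SLC47A1 (chromosome 17, 19495385 to 19579034, plus strand) had counts in 7 samples, at most 4.64. A count of 0 allows up to 3 counts, which is 0.0691 to 0.113 CPM at the depth of these libraries, and this limit covers counting error only. No fold change is given for these 3 genes, since every group was at or close to that limit, and none was called in any comparison.

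The patterns of the members over the 24 samples were set beside those of 13370 genes by Pearson's r of log2(CPM + 1). These values describe 24 samples that share 8 groups and 2 lines, and they carry no test. The genes most alike were TMED8 (0.923), CERT1 (0.914) and HMGXB4 (0.909) for SLC31A1, and AKR1B10 (0.948), ANXA8 (0.945) and SUGCT (0.945) for SLC31A2. For ATOX1 they were APOBEC3H (0.964), TMEM74 (0.961) and SH3PXD2A-AS1 (0.96), for ATP7A MED23 (0.863), BBX (0.84) and ATG2B (0.832), and for ATP7B ATP2C2 (0.769), CDH22 (0.73) and MYORG (0.693). Among the members themselves, SLC31A2 and ATOX1 had an r of 0.70, SLC31A1 and ATP7A of 0.57, and SLC31A1 and SLC31A2 of -0.22.

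Further genes of copper and cation handling were counted from 5 lists of 38 genes. Among 11 copper chaperones and genes of cuproenzyme assembly, 5 were higher and 2 lower in untreated HCT116 oxpl-R (median log2 fold change 0.30, against 0.08 over all genes of the count table), where 28.3% of the count table and 24.1% of the second table were called. DESeq2 also called 5 higher and 2 lower, while limma on the second table called 2 higher and 2 lower. With E1A, oxaliplatin and both agents 5, 3 and 3 were higher and 0, 1 and 0 lower, against 17.7%, 20.7% and 18.5% of the count table called and 15.9%, 21.5% and 14.4% of the second table. COX17, which brings copper to cytochrome c oxidase, was called in all 4 line comparisons, at 88.8 ± 17.9 CPM in untreated HCT116 oxpl-R and 35.3 ± 4.44 CPM in HCT116 (SD, n = 3), a log2 fold change of 1.34 (SE 0.16, edgeR adjusted p = 3.63e-05). SOD1, the copper-zinc superoxide dismutase, was also called in all 4, at 566.5 ± 144.4 and 274.1 ± 12.2 CPM, a log2 fold change of 1.05 (SE 0.16, edgeR adjusted p = 0.000368).

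Over all 5 lists 14 of 38 genes were called between the untreated lines, beside 28.3% of the count table and 24.1% of the second table. Of 6 metal reductases and divalent metal carriers, 1 was higher and 1 lower in the untreated resistant line. STEAP3, a ferrireductase of endosomes, was lower in all 4 line comparisons, at 31.3 ± 1.29 CPM in HCT116 oxpl-R and 73.3 ± 7.90 CPM in HCT116 (log2 fold change -1.23, edgeR adjusted p = 1.63e-05). Of 9 copper-dependent oxidases and copper-binding proteins, 2 were higher and 2 lower. HEPH, the copper ferroxidase hephaestin, was lower in all 4 line comparisons, at 0.567 ± 0.126 and 5.40 ± 0.5995 CPM (log2 fold change -3.24), and PRNP, the copper-binding prion protein, was higher in all 4, at 202.6 ± 16.7 and 122.7 ± 6.89 CPM (0.73). Of 7 further organic cation and carnitine carriers, 0 were called between the untreated lines by edgeR or DESeq2, with 1 at an unadjusted p under 0.05. SLC22A15 was higher with both agents (log2 fold change 1.51, edgeR adjusted p = 0.0116) and SLC29A4, a monoamine carrier, lower with oxaliplatin (-0.95, edgeR adjusted p = 0.00498). Of the 5 subunits of the volume-regulated anion channel, which also passes platinum drugs, 1 was called between the untreated lines, LRRC8B, lower in HCT116 oxpl-R (-0.67, edgeR adjusted p = 0.00392), while LRRC8A, the subunit the channel cannot do without, was at -0.17 (edgeR adjusted p = 0.285).

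Oxaliplatin in HCT116 without E1A called 10 of the 38 genes, a share near that of all genes (23.3% of the count table and 21.1% of the second table). Of the chaperone and assembly genes 1 was higher and 1 lower. SCO2, an assembly factor of cytochrome c oxidase and a known p53 target, rose from 53.1 to 111.2 CPM (log2 fold change 1.14, edgeR adjusted p = 0.00292), and CUTC, a copper homeostasis gene, fell from 62.1 to 20.5 CPM (log2 fold change -1.52, edgeR adjusted p = 0.000886). Of the copper-dependent oxidases and binding proteins 0 were higher and 3 lower, PAM, the peptide amidating enzyme, by -0.82. HEPH was the other of the 2 largest calls of this list over the oxaliplatin comparisons, and its value is not given here. Of the organic cation carriers 2 were higher, SLC29A4 (0.83) and the carnitine carrier SLC22A5 (0.54), and of the channel subunits LRRC8E was higher (0.82) and LRRC8B lower (-0.92). STEAP2 was the reductase called, lower at -0.83. In HCT116 oxpl-R, oxaliplatin called 0 of the 38 genes by edgeR, DESeq2 or limma, without E1A (4 at an unadjusted p under 0.05 by edgeR) or with it (3), where 4.12% and 2.06% of the count table and 4.28% and 1.96% of the second table were called, so a count of 0 is near the background. E1A in HCT116 called 4 of them, where 9.5% of the count table and 5.22% of the second table were called, and all 4 were lower, namely CUTC (-0.86), SCO1 (-0.43), the divalent metal carrier SLC11A2 (-0.50) and LRRC8B (-0.44). DESeq2 called 5 lower there and limma 1, and both called 0 higher.

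**Figure D3:**
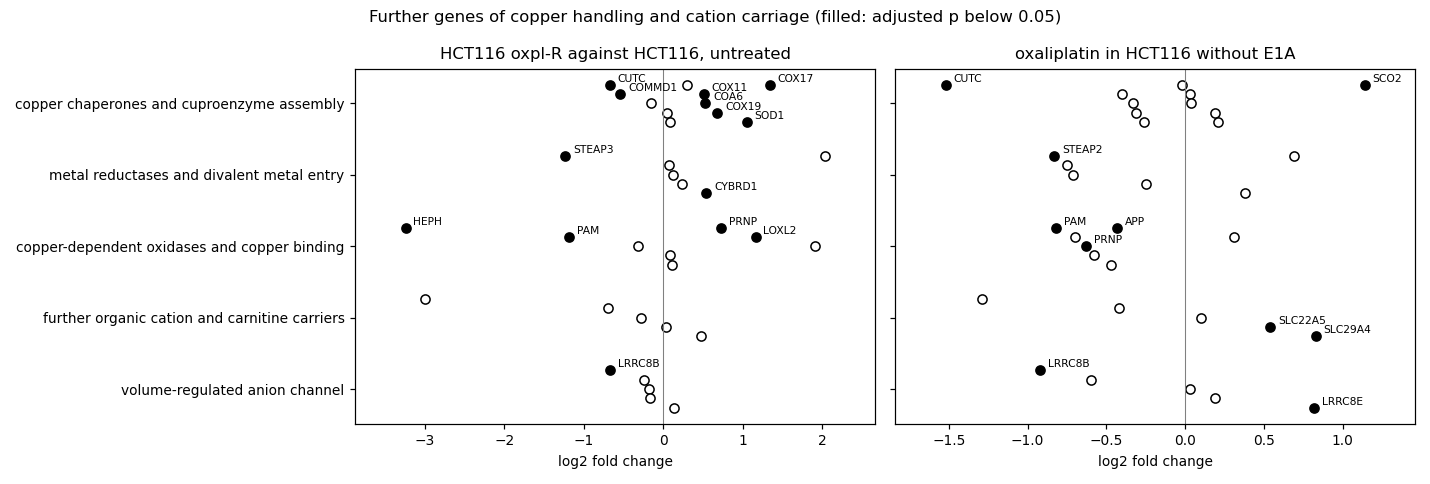
Log2 fold change (horizontal axis) of the genes of the 5 lists that had at least 10 counts in some sample, in untreated HCT116 oxpl-R against HCT116 (left) and with oxaliplatin against without in HCT116 (right). Each point is a gene, filled and named where its edgeR adjusted p was below 0.05; COX17 and SOD1 lie farthest to the right among the called chaperone and assembly genes on the left, and CUTC farthest to the left among those on the right.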

How the data were processed

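RNA of 24 samples was sequenced by the study. The authors trimmed the reads with Trimmomatic, quantified transcripts of GENCODE 47 (GRCh38) with Salmon 1.6.0 and used tximport for gene sums. The values deposited are estimated counts, 15.9% to 30.4% of which were not whole in a sample, and all were rounded here. The count table used here ends at SETP6. A second deposited table, named as TPM, runs to TSC22D3, but its column sums of 28004261 to 42613322 are not those of TPM, so it was taken as length-scaled estimated counts, another unit than its name gives, and tested like counts. Both tables as read were cut short in the line after these genes. Gene numbers, library totals, CPM and shares of all genes thus cover the genes up to there.

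The tests were run with edgeR 4.0.16 in R 4.3.3 (TMM, quasi-likelihood test, genes with any count, Benjamini-Hochberg adjustment over all genes of the table, called below 0.05), with 6 samples in each of 12 pairwise fits and 12 in each of 4 interaction fits. Alternatives were RLE, DESeq2 1.42.0, filterByExpr, all 24 samples in one fit, a replicate block, each sample left out, limma 3.58.1 on the second table as log2(value + 1) or with 0.1 added, edgeR on the second table for every member, and 3 libraries left out together, the last chosen after the data were seen. Tests were tried on simulated data first, and the outcome is not given here. No 2 libraries held identical values.

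The members and lists were chosen with earlier results of these data known. All members are named, with list genes called in all 4 comparisons of a kind or else the 2 largest calls of a list, and the 3 genes most alike in pattern among those with a mean of at least 10 counts; neighbours within 1 Mb, antisense genes, LRRC8A and motifs were added after values or sequences had been seen. Positions came from GENCODE 44 by symbol, and promoter windows from RefSeq on GRCh38.p14. Replicates of the same number deviated together, with all 3 correlations across genes over 0.1, in 2 of 12 comparisons: the lines with oxaliplatin (0.141, 0.188 and 0.253) and oxaliplatin in HCT116 oxpl-R with E1A (0.419, 0.48 and 0.529). Python 3.11.15, pandas 2.3.3, numpy 2.4.6 and matplotlib 3.10.9 were used.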

Additional observations from a re-analysis of the deposited data

Results flagged for a closer look

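The response of ATOX1 to oxaliplatin differed between the lines by -1.04 on the log2 scale (interaction of line and oxaliplatin without E1A, edgeR adjusted p = 0.0431), with a rise of 0.70 in HCT116 and a change of -0.36 in HCT116 oxpl-R. All 3 treated HCT116 samples were above their controls and all 3 treated HCT116 oxpl-R samples below theirs. How many of all genes have samples placed in this way was not counted. The adjusted p lay between 0.00361 and 0.147 over 21 alternatives, of which 14 put it above the threshold, and the sign held in all 21.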

How the results depend on the processing

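Over 263 recomputed values of 17 differences, 201 kept their direction and side of the threshold, 42 lost the call, 20 gained it and 0 changed sign. The 6 calls of higher members between lines were 6 to 8 under every alternative, and 0 were lower in any. The 2 oxaliplatin calls of higher members were 1 to 3 with 1 sample left out and the 2 of lower members 1 to 3. The lower calls were 1 with the replicate block and 4 with the 3 libraries that stand apart left out. The 1 E1A call was 0 to 1 with 1 sample left out, and 0 with all 24 samples in one fit, the replicate block, or limma at either pseudocount. Interaction calls of lower members numbered 1 (0 to 1 with 1 sample left out, 0 with all 24 samples in one fit, the replicate block, limma at either pseudocount, or edgeR on the second table). Those of higher members numbered 0 (0 to 2 with 1 sample left out, 1 with DESeq2, filterByExpr, all 24 samples in one fit, or limma at either pseudocount, and 3 with the 3 libraries left out). The cause of these moves was not tested. With 3 samples a group, intervals of the members were wide, and ATP7A at 87 to 411 counts a sample and the 3 carriers near 0 were limited by depth. The block changed the calls named in the text, and in pairs whose numbers did not deviate together it gave adjusted p = 0.0696 for ATOX1 and 0.0908 for SLC31A1 with oxaliplatin in HCT116, 0.0501 for SLC31A1 with E1A present, 0.132 for ATP7B with E1A, 0.0624 for the ATOX1 interaction, 0.0109 for ATP7A with oxaliplatin in HCT116 with E1A and 0.0413 for ATP7A between the lines with both agents (edgeR).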
